A study of Mus musculus with 6 samples.

Results

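MERVL-int and MT2_Mm are the names that repeat annotation gives to the internal part and the long terminal repeat (LTR) of the mouse endogenous retrovirus MERVL. The regions described here are those on chromosomes 1 to 19 and X whose centre the authors' annotation placed on either of these elements. There were 901 of them, among 23030 regions on the same chromosomes and 39096 in the whole list. The list came from chromatin immunoprecipitation and sequencing (ChIP-seq) of PHF13, a PHD finger protein that reads methylated histone H3, written SPOC1 in the library names. All 6 libraries came from testis of C57Bl/6 mice aged 5 weeks, 3 from SPOC1 ChIP and 3 from input chromatin. By the labels, 1 ChIP library and 2 inputs were wild type, and 2 ChIP libraries and 1 input were Phf13-/-, with the input and the ChIP of replicate 2 labelled differently. No source used here says which of these libraries were used to call the regions, so the entries are called regions and not PHF13 binding sites. The list has 0 columns of values per library. There was therefore no replicate error, no comparison of ChIP with input or between genotypes, and no test, and all values below describe this 1 list. Library depth is unknown. Shares carry 95% intervals by Wilson's method, which reflect counting error alone. These intervals, and those of medians, take each region as separate. Regions that lie close together often have the same chromosome, gene and distance class, so for such values the intervals are too narrow.

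As background, MERVL is a retrovirus of the ERVL class that entered the mouse germ line and now sits in the genome as many copies. A complete copy has an internal part with the gag and pol genes between a pair of MT2_Mm LTRs, and recombination between the LTRs can leave a single LTR behind. The LTR carries the promoter. MERVL is best known for its burst of transcription in the 2-cell embryo, where the homeobox factor DUX switches it on and where many LTRs act as start sites of host gene transcripts. In other cells it is kept silent by histone-modifying enzymes and chromatin assembly factors.

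The sequences that show what such an LTR start looks like came from RefSeq start windows (build GRCm38.p6, the assembly that mm10 names), which run from 250 bases before to 50 bases after an annotated start. Of 32619 windows on these chromosomes, 4 overlapped a MERVL-int or MT2_Mm region. The windows of the long noncoding RNA Gm52608, of Gm12790 and of the noncoding RNA LOC115487209 shared sequence with each other, and the window of an internal start of Tbc1d23, a gene of vesicle trafficking, did not. Gm4340 and Sp110 are shown beside them because they are 2-cell-stage genes with the same LTR sequence but with 0 regions of this list within 10 kb of that start. Each line gives the 250 bases before the start, 5′ to 3′ in the direction of transcription. Capitals mark the core of the DUX motif, GATTCAATC, which appears here as its reverse complement GATTGAATC, and a stretch like a TATA box, TATAAG. GATTCAATC is absent on either strand from the Sp110 and Tbc1d23 lines. The Tbc1d23 line also lacks TATAAG, but it holds the similar stretches tataaat and tataaag, which are not marked.
Gm52608, chr3:69854442-69854691, + strand: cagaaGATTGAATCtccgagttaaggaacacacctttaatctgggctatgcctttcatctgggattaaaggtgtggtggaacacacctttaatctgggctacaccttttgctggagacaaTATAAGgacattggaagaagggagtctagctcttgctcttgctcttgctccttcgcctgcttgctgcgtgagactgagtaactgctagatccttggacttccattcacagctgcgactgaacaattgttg
Gm12790, chr4:101975106-101975355, - strand: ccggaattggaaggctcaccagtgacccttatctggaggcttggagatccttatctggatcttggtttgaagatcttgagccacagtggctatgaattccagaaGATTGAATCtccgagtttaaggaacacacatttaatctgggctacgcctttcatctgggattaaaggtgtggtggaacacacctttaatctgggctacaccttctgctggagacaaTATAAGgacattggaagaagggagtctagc
LOC115487209, chr9:20619306-20619555, - strand: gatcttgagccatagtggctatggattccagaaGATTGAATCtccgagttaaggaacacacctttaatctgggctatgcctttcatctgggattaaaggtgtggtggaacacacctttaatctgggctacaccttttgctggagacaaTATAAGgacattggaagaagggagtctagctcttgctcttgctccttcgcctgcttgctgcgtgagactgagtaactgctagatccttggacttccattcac
Tbc1d23, chr16:57201472-57201721, - strand: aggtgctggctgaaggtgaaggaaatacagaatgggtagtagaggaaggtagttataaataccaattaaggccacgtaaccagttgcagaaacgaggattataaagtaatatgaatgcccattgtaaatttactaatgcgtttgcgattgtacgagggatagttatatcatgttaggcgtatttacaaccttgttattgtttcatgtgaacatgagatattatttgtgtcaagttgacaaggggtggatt
Gm4340, chr10:104193792-104194041, + strand: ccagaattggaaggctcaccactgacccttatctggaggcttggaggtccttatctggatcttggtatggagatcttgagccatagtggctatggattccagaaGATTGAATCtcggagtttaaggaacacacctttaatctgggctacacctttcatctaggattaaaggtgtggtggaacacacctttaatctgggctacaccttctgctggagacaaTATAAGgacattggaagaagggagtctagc
Sp110, chr1:85603892-85604141, - strand: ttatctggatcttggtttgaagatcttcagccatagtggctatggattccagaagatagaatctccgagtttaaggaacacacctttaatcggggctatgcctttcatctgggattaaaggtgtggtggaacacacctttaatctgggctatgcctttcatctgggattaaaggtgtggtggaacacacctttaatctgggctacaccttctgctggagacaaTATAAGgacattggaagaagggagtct

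The first 3 windows carried nearly the same sequence. Gm52608 and LOC115487209 shared an identical run of 164 bases, Gm52608 and Gm12790 one of 58, and Gm12790 and Gm4340 one of 97. Between Gm12790 and Sp110 the longest run was 109 bases. Tbc1d23 shared no run over 10 bases with any of the others. In Gm12790 the TATAAG stretch began 30 bases before the start and GATTCAATC 146 bases before it. In Gm52608 these distances were 130 and 245 bases, and in LOC115487209 they were 102 and 217 bases. The spacing between the marked stretches was thus almost fixed, and the annotated start moved along the LTR.

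The regions at these starts had scores within the range of their elements. The whole Gm52608 window lay inside an MT2_Mm region of 914 bp (69853885 to 69854799, score 26.8) in intron 1 of 2 of the gene that the list names Sptssb, and no other MERVL region lay within 10 kb. The Gm12790 window overlapped an MT2_Mm region of 500 bp (101975139 to 101975639, score 14). That region was the first of a row of 4, followed by 3 MERVL-int regions with scores of 14.7, 17.2 and 26.1. The LOC115487209 window overlapped a MERVL-int region of 958 bp (20619442 to 20620400, score 29.3), which had a second MERVL-int region beside it (20621931 to 20623326, score 44.8). The Tbc1d23 window overlapped a MERVL-int region of 500 bp (57201230 to 57201730, score 21.2) in intron 5 of 17, with a second one next to it (score 28.2).

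Most annotated starts with this LTR sequence had no region at or near them. Besides the 3 windows used as the query, 26 windows of 25 genes shared at least 20 stretches of 20 bases with them, 24 of them in the same orientation. A MERVL-int or MT2_Mm region lay within 10 kb of 2 of the 26, LOC105246046 (41 bp away) and Gm12789 (6.58 kb), and any region of the list lay within 10 kb of 4. Over all 32619 windows, 94 (0.288%) had a MERVL-int or MT2_Mm region within 10 kb, a smaller share than the 2 of 26. For regions of any kind, the share over all windows was not counted. The other 24 of the 26 had no MERVL region within 100 kb. They are not all separate cases, since the windows of Gm21293, Gm8764, Gm21304, Gm21312, Gm20765 and Gm4340 lie close together on chromosome 10 and each shared 137 stretches. Examples are Sp110, a nuclear body protein whose nearest region of any kind was 47.2 kb away, Pramel17 (20.4 kb), Gm4340 (36.5 kb) and Eif4a3l1, whose nearest region, 3.33 kb away, was a simple repeat. GATTCAATC was present on either strand in 15 of the 26 windows (57.7%) and in 0.0951% of the windows without the LTR sequence; over all windows the share was 0.15%. TATAAG was present in 24 of the 26 (92.3%) and in 7.47% of all windows. The 26 were found by likeness to windows that hold both motifs, so these shares describe the LTR and are not a separate observation, and a match is not evidence that a factor binds. The motifs do not overlap each other.

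**Figure D1:**
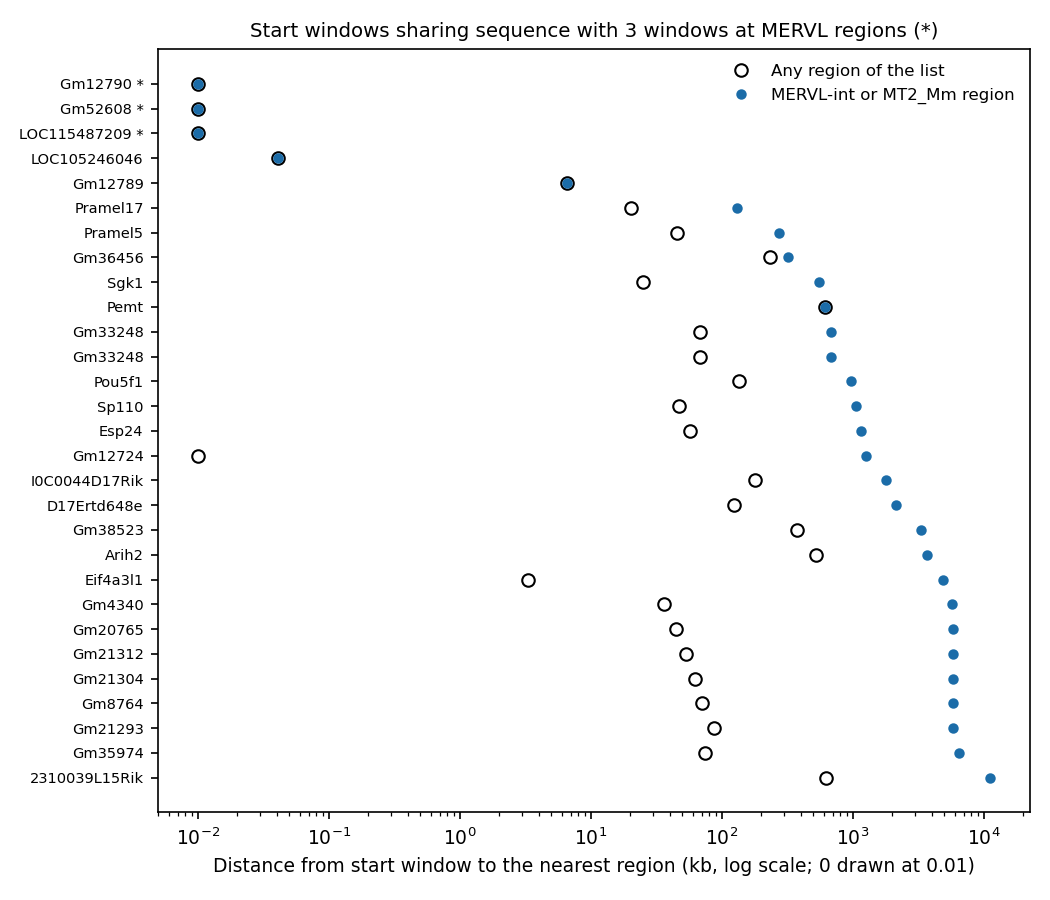
Distance in kb (log scale, 0 drawn at 0.01) from each of 29 RefSeq start windows with MT2_Mm-like sequence to the nearest MERVL-int or MT2_Mm region (filled) and to the nearest region of any kind (open); asterisks mark the 3 query windows. Beside the query windows, only LOC105246046 and Gm12789 had a MERVL region within 10 kb, and Gm12724 lay on a region of the related MERVL_2A-int.

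The internal part made up most of the regions. MERVL-int held 691 of the 901 (76.7%, 73.8 to 79.3%) and MT2_Mm 210 (23.3%, 20.7 to 26.2%). Together they were 3.91% (3.67 to 4.17%) of the regions on these chromosomes and 22.7% of the 3966 centred on an LTR retrotransposon of any kind. MMERVK10C, an endogenous retrovirus of the ERVK class, had a like share of regions on its LTRs, 61 of 264 (23.1%, 18.4 to 28.6%). The intracisternal A particle (IAP), still mobile in mice, had 7 of 1903 on its LTRs (0.368%), and the ETn family had 1 of 224 (0.446%). Genomic copy numbers of the elements were not analysed here, and none of these shares is an enrichment. The share of all regions depended on the cut. It was 0.825% among regions here that reached the 10% highest scores of the whole list, and 2.34% when Y and the contigs were counted.

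Internal regions were longer than LTR regions. The median length was 665 bp for MERVL-int (quartiles 500 and 920 bp, longest 2985 bp) and 562.5 bp for MT2_Mm (500 and 759.8 bp, longest 1246 bp). A length of exactly 500 bp, the shortest of either element, held 36.3% of MERVL-int and 50% of MT2_Mm regions, against 36.9% of all other regions. Over 1 kb there were 148 MERVL-int regions (21.4%) and 14 MT2_Mm regions (6.67%). Over 2 kb there were 28 MERVL-int regions and 0 of 210 MT2_Mm regions. Long regions were rarer than at other retrotransposons: 3.11% of the 901 were over 2 kb, against 11.7% at IAP and 20.1% at L1Md_T, a young LINE-1 family.

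The authors' score grew with length, and the score per kb varied less than the score, relative to its median. MERVL-int had a median score of 22.5 (quartiles 17.2 and 31.2, range 10.8 to 97.9) and MT2_Mm one of 17.2 (14.9 and 23.8, range 8.28 to 39.1). Per kb the medians were 32.8 and 30.02, a ratio of 1.09 (1.06 to 1.13 from the 95% order-statistic intervals of the medians). All other regions had a median of 27.8 per kb, IAP 32.2, L1Md_T 29.3, MMERVK10C 26.1 and ETn 21.7. The MERVL-int median exceeded that of MT2_Mm on 20 of 20 chromosomes. On chromosome 18 the medians were nearly equal (32.63 and 32.62), and chromosome 19 had only 2 MT2_Mm regions. Means of the chromosome medians over the autosomes were 32.8 ± 0.70 and 30.1 ± 1.40 (SD, n = 19 chromosomes). These chromosomes share the same libraries and are not replicates.

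The spread of score per kb was narrow. Its coefficient of variation was 11.8% for MERVL-int and 13.5% for MT2_Mm, against 18.1% for IAP, 22.3% for L1Md_T and 28.2% for MMERVK10C. Only 1 of the 901 regions scored under 10, the MT2_Mm region nearest to Car10 (chromosome 11, 92591672 to 92592172, score 8.28), whereas 15.9% of all other regions did. IAP was also low in such scores, with 1.21%, and L1Md_T had 4.94%. Among the 10% highest scores on these chromosomes were 11 MERVL-int regions and 0 MT2_Mm regions, 1.22% of the 901 (0.683 to 2.17%). This cut was set on these chromosomes alone, not on the whole list. By score per kb, 115 (12.8%, 10.7 to 15.1%) were among the 10% highest, 104 of them MERVL-int (15.1% of that element) and 11 MT2_Mm (5.24%). In the MERVL-int regions of 500 bp the coefficient was 13.8%, and in those over 2 kb it was 6.8%. Scores were multiples of 0.2124 (to within 0.006 for scores under 10), and if each such step were 1 tag, counting error alone would give 11.6% and 5.28%. Whether a step is a tag is not stated in the file.

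**Figure D2:**
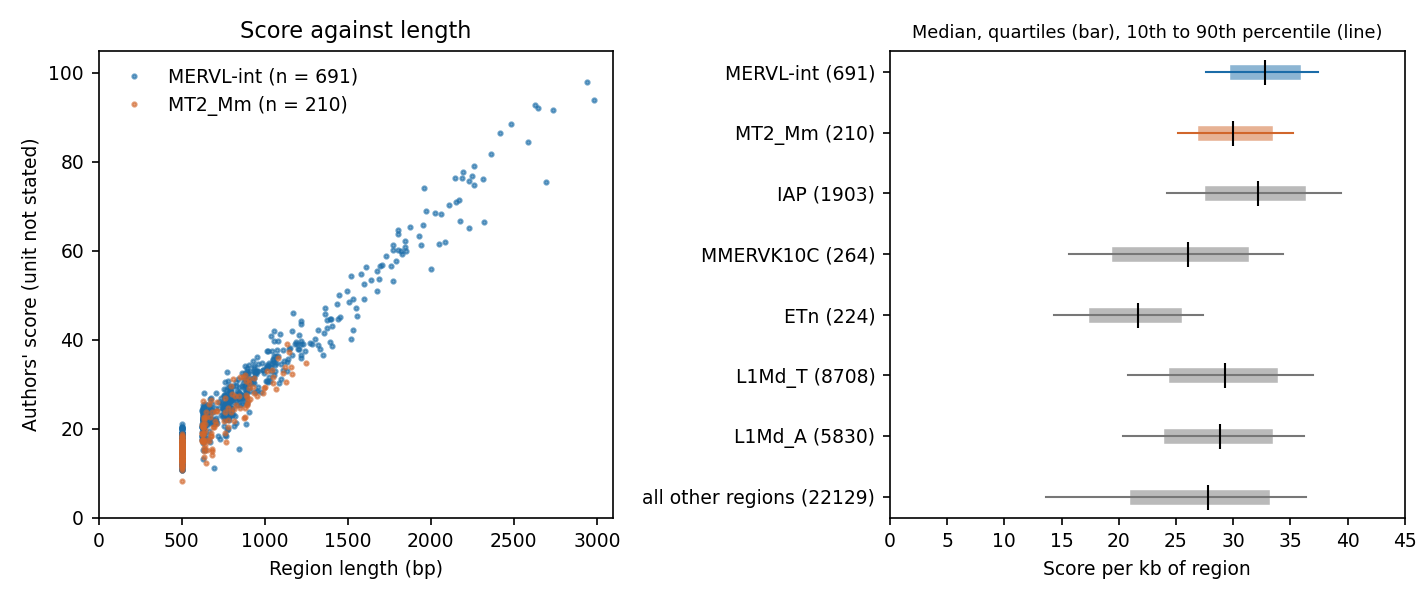
Left, the authors' score (unit not stated) against region length in bp for each of the 691 MERVL-int and 210 MT2_Mm regions; right, score per kb by group (tick, median; bar, quartiles; line, 10th to 90th percentile; number of regions in brackets). Score rose with length in both elements, and the MERVL-int and MT2_Mm bars are the narrowest shown.

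The highest scores were those of the longest internal regions. The region nearest to Kazald1 (chromosome 19, 45093177 to 45096115) was intergenic, 2938 bp long and scored 97.9. The region in intron 1 of 27 of Ankrd44 (chromosome 1, 54891100 to 54894085) was the longest, at 2985 bp, and scored 93.9. The next by score was a region nearest to Lbp, the gene of the lipopolysaccharide binding protein (chromosome 2, 158286373 to 158288998, score 92.8), and the next by length was one in intron 4 of 25 of Scml2, a Polycomb-related gene of the germ line (X, 161182734 to 161185472, 2738 bp, score 91.7). Among MT2_Mm regions, the highest scores were 39.1 near Msra (1134 bp), 37.2 near Ctf2 (1146 bp) and 35.9 near Gm3763 (1077 bp). The longest MT2_Mm regions were those nearest to Efnb2 (1246 bp, score 34.8), AA619741 (1167 bp, 32.3) and Daam1 (1161 bp, 34).

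Ranked by score per kb, the top regions were not the longest ones. Among regions over 500 bp, the top MERVL-int values were 44.0 per kb near Pdha2, 42.4 at Rptor, 40.3 near Prdm14, 40.3 near Amigo2 and 40.1 near H2-M11. The top MT2_Mm values were 41.9 per kb near Kcnn2, 39.2 near Kdm6a, 38.7 near Sall3, 38.3 near Oog4 and 37.4 near A730017C20Rik. All 10 of these regions were between 627 and 807 bp long. Prdm14, a regulator of germ cell fate, is only the nearest start by the list, 84.9 kb away.

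Most regions lay beside another MERVL region, in groups rarely longer than 7 kb. Of the 901, 625 (69.4%, 66.3 to 72.3%) had another MERVL-int or MT2_Mm region within 10 kb, measured edge to edge. The same share within IAP was 53.6%, within ETn 48.2%, within MMERVK10C 42.4% and within L1Md_T 55.8%. Among all other regions, with neighbours of any of their elements counted, it was 56%. MERVL-int regions counted by themselves had 57.7% and MT2_Mm regions 14.3%, so part of the 69.4% comes from pooling the 2 elements. Chained at this distance, the 901 regions formed 544 loci, of which 276 had 1 region, 189 had 2, 70 had 3, 8 had 4 and 1 had 5. Of the 268 loci with 2 or more regions, 264 (98.5%) spanned 7 kb or less although the rule would have allowed longer chains. Their median span was 4401 bp, of which the regions covered a median of 44.7%.

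Most loci held regions on the internal part and none on the LTR. By content, 349 loci (64.2%, 60 to 68.1%) held MERVL-int only, 123 (22.6%, 19.3 to 26.3%) held both elements and 72 (13.2%, 10.6 to 16.3%) held MT2_Mm only. Of the 210 MT2_Mm regions, 68 (32.4%) were alone, and of the 691 MERVL-int regions 208 (30.1%) were. The share with both elements fell to 12.3% in the upper 50% of scores, a cut set over the whole list. It fell to 11.6% without regions of exactly 500 bp, and both settings leave fewer regions to pair. An MT2_Mm region alone in this list need not be a solo LTR in the genome, since a provirus can lie beside it without a region. The MT2_Mm regions that were alone had a median of 28.6 per kb, against 30.3 for those with a neighbour, and for MERVL-int these medians were 32.1 and 33.1.

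In loci of 3 or more regions, MT2_Mm seldom lay between other regions. Of the 123 loci with both elements, 73 had 2 regions, where MT2_Mm is at an end by construction. Of the 50 with 3 or more, 2 had an MT2_Mm region with another region on either side, those in Myo5b and Nelfa. Over all 123, an MT2_Mm region formed the end with the lower coordinate only in 53, the other end only in 59, both ends in 10 and neither end in 1. The 10 loci with the order LTR, internal part, LTR spanned 6085 to 6537 bp (median 6374 bp), the narrowest range of spans among the orders seen in 10 or more loci. They lay near Car10, 1110038F14Rik, A630010A05Rik, 1700028P15Rik, Cdk5rap2 and Megf9, Diablo and Vps33a, Tril, Champ1, Ube2cbp and Gk5. A further 4 loci held 2 MT2_Mm regions with nothing between them and spanned 4675 to 6349 bp.

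Distances between neighbours were nearly all under 6 kb. There were 357 pairs of neighbours within 10 kb: 218 of 2 MERVL-int regions (61.1%), 134 of MERVL-int with MT2_Mm (37.5%) and 5 of 2 MT2_Mm regions (1.4%). The gap between neighbours ran from 500 to 9542 bp with a median of 1615 bp, and only 1 of the 357 was over 5500 bp. Centres of neighbouring MERVL-int regions were a median of 2268 bp apart, most often 1 to 2 kb (91 of 218). From each MT2_Mm region to each MERVL-int region of its locus there were 180 distances, and the fullest class was 5 to 5.5 kb, with 33, followed by 2.5 to 3 kb with 26. Adjoining classes of 4.5 to 5 kb and 5.5 to 6 kb held 4 and 8. Loci with more regions count several times among the 180. Among the 134 neighbouring pairs of the 2 elements, the fullest class was 1000 to 1500 bp, with 24, and 5 to 5.5 kb held 14.

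**Figure D3:**
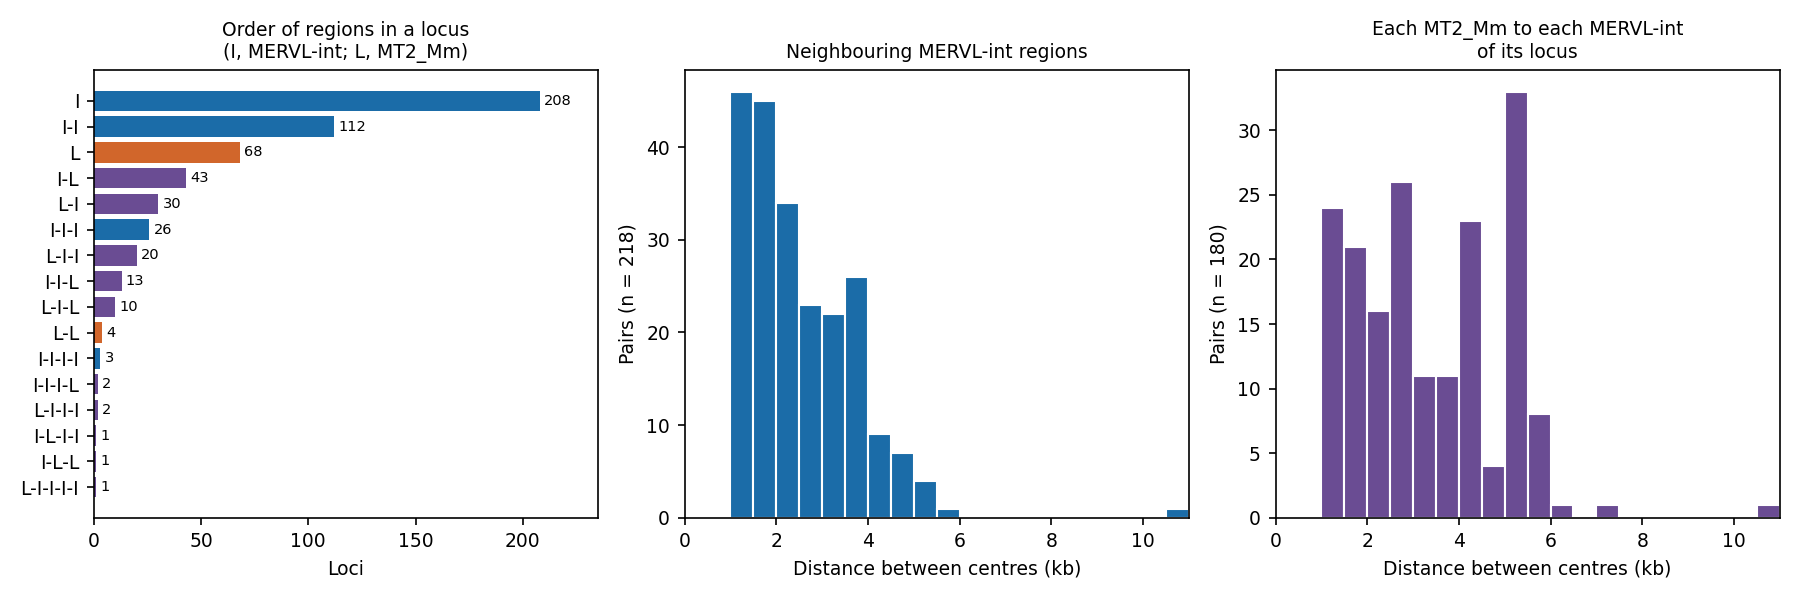
Left, number of loci by the order of their regions (I, MERVL-int; L, MT2_Mm; blue, internal part only; orange, LTR only; purple, both); middle and right, distances between region centres in kb, in classes of 500 bp, for 218 pairs of neighbouring MERVL-int regions and for 180 pairs of an MT2_Mm and a MERVL-int region of the same locus. Single MERVL-int regions were the commonest kind of locus, with 208. Over the 180 pairs, which set each MT2_Mm against each MERVL-int region of its locus, the distance peaked at 5 to 5.5 kb.

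Inside a locus the internal regions also had the higher score per kb. In the 123 loci with both elements, the mean MERVL-int value exceeded the mean MT2_Mm value in 82 (66.7%), was lower in 40 and equal in 1. The medians were 32.9 and 30.2 per kb, and the median of the difference, MERVL-int minus MT2_Mm, was 1.92 per kb (quartiles -1.06 and 5.21). The quartiles of the difference lie on both sides of 0, so the order held for most loci and not for each one. MERVL-int was the longer in 71 of these loci, the shorter in 37 and of equal length in 15.

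The locus with the most regions lay 150.8 to 156.3 kb from the start of Dkk2, a gene of Wnt signalling (chromosome 3). It began with an MT2_Mm region (131928615 to 131929284, score 22.7), followed by 4 MERVL-int regions with scores of 13, 19.1, 28.5 and 27.6, and spanned 6218 bp. Upstream of Arg2, which codes for the mitochondrial arginase, 4 MERVL-int regions (chromosome 12, 79123604 to 79129318) had scores of 16.4, 33.1, 20 and 15.7. The row of 4 near Gm12789 is the one at the Gm12790 start shown above. The longest chain, 12129 bp on chromosome 11 (99822136 to 99834265), joined 2 MERVL-int regions with a gap of 9542 bp between them. The next 4 by span were those near Kdm6a on X (11336 bp), in an intron of Myo5b (8573 bp), in intron 3 of 10 of Nelfa (7905 bp) and near P2ry1 (6700 bp).

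Some MERVL loci had a region of another name inside the same few kilobases. ORR1A3-int, the internal part of an older LTR retrotransposon of the MaLR group, was at the centre of 60 regions of the list, and 39 of them (65%, 52.4 to 75.8%) lay within 10 kb of a MERVL region, 35 next to MERVL-int and 4 next to MT2_Mm. The distance was 534 to 5017 bp with a median of 2238 bp. For the other common elements the share within 10 kb was 0.23% at L1Md_T (20 of 8708), 0.326% at L1Md_A (19 of 5830) and 0.422% at IAPEz-int (8 of 1896). The 39 stood beside 39 loci with 58 MERVL regions, and 20 of these loci were single MERVL-int regions; the median span including the ORR1A3-int region was 5205 bp. Their median score per kb was 30.9, between those of MT2_Mm and MERVL-int, and the 21 ORR1A3-int regions farther away had 31.5. Over all elements, 135 of the 901 (15%) had a region of another element within 10 kb. This comparison was chosen after the values had been seen.

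MERVL regions, like those of the other retroviruses compared, took a smaller share on X than the list as a whole. The autosomes carried 0.358 ± 0.050 MERVL regions per Mb (SD, n = 19 chromosomes), with the lowest value, 0.266, on chromosome 6 and the highest, 0.445, on chromosome 18. The X value was 0.286 per Mb, 0.80 times the autosomal mean, and 1 of the 19 autosomes was lower. All other regions were 2.43 times as dense on X as on the mean autosome (18.9 against 7.75 ± 1.15 per Mb) and X exceeded 19 of 19. X thus held 5.33% (4.04 to 6.99%) of the MERVL regions and 14.3% (13.8 to 14.8%) of the others. The share on X was 6.73% (5.69 to 7.94%) for IAP, 7.58% (4.96 to 11.4%) for MMERVK10C and 8.48% (5.5 to 12.9%) for ETn, intervals that overlap that of MERVL. As loci the ratio was also 0.80, with 0.173 per Mb on X. The LTR share was 33.3% on X and 22.8 ± 6.1% on the autosomes, where it ran from 11.1% on chromosome 19 to 33.3% on chromosome 9. Few 1 Mb windows held several loci: of those with any, 408 held 1, 62 held 2 and 4 held 3.

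**Figure D4:**
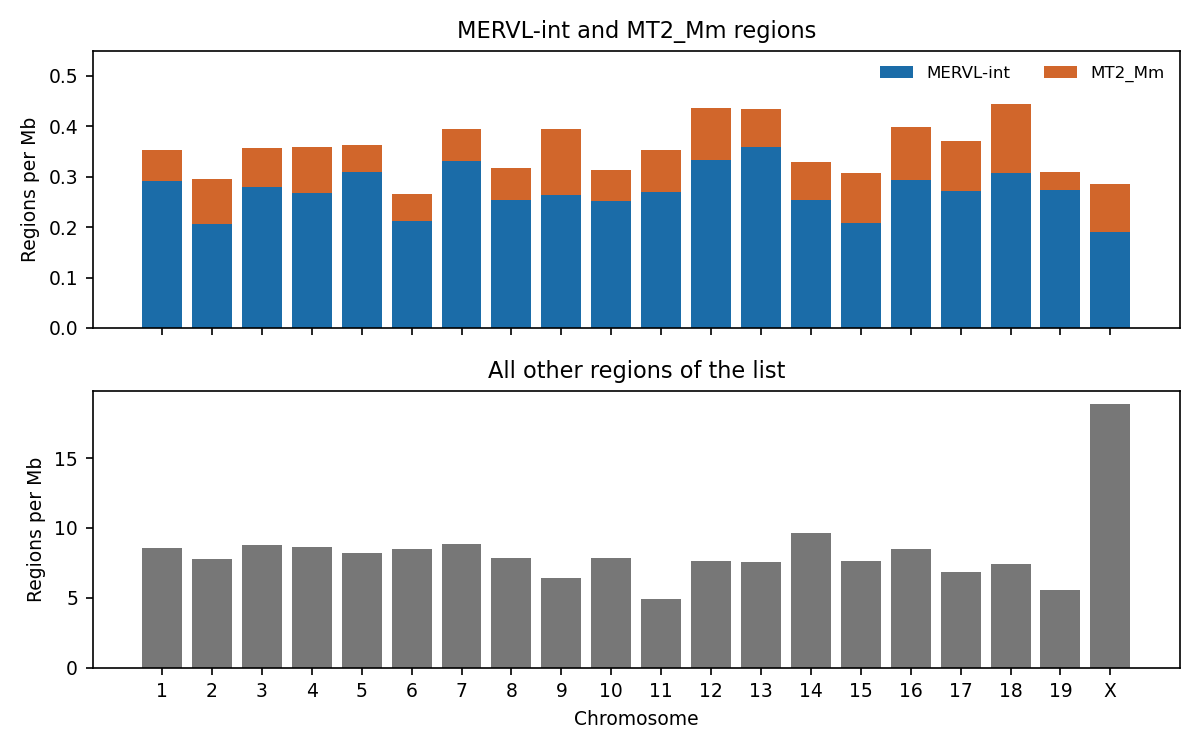
Regions per Mb on each chromosome, for MERVL-int (blue) with MT2_Mm (orange) stacked on it (top) and for all other regions of the list (bottom). X is the highest chromosome in the lower panel, at 18.9 per Mb, and lies below the autosomal mean in the upper panel, at 0.286 per Mb.

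MERVL regions lay closer to genes than the list as a whole, but their distances overlapped those of some other retroviruses. The median distance to the nearest transcription start site (TSS) was 50.1 kb (95% order-statistic interval 44.2 to 59.1 kb), against 80.0 kb for IAP, 127.2 kb for L1Md_T and 110.4 kb for all other regions. MMERVK10C, at 60.7 kb (47.0 to 84.7 kb), and ETn, at 62.1 kb (53.1 to 79.8 kb), had intervals that overlap that of MERVL. MERVL-int had a median of 48.2 kb (42.1 to 55.7 kb) and MT2_Mm one of 61.9 kb (43.6 to 77.8 kb), so the interval of the LTR regions holds the median of the internal ones. Within 50 kb of a TSS lay 49.7% of the MERVL regions and 31.5% of the others, and within 10 kb 10.2% (8.4 to 12.4%) and 6.62% (6.3 to 6.95%). IAP stood at 9.14% within 10 kb, inside the interval of the MERVL regions. By the authors' annotation 617 were intergenic (68.5%, 65.4 to 71.4%) and 284 intronic (31.5%, 28.6 to 34.6%), against 20.6% intronic among the others and 20% at IAP. The annotation names a repeat on these chromosomes only for intergenic and intronic regions, so no member could have been classed as promoter, exon or termination site. With the RefSeq genes of GRCm38.p6, 31.9% of the centres were inside a protein-coding gene, against 22.1% of the others. With 1 region per locus the intergenic share was 70.4% and the median distance 54.1 kb.

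**Figure D5:**
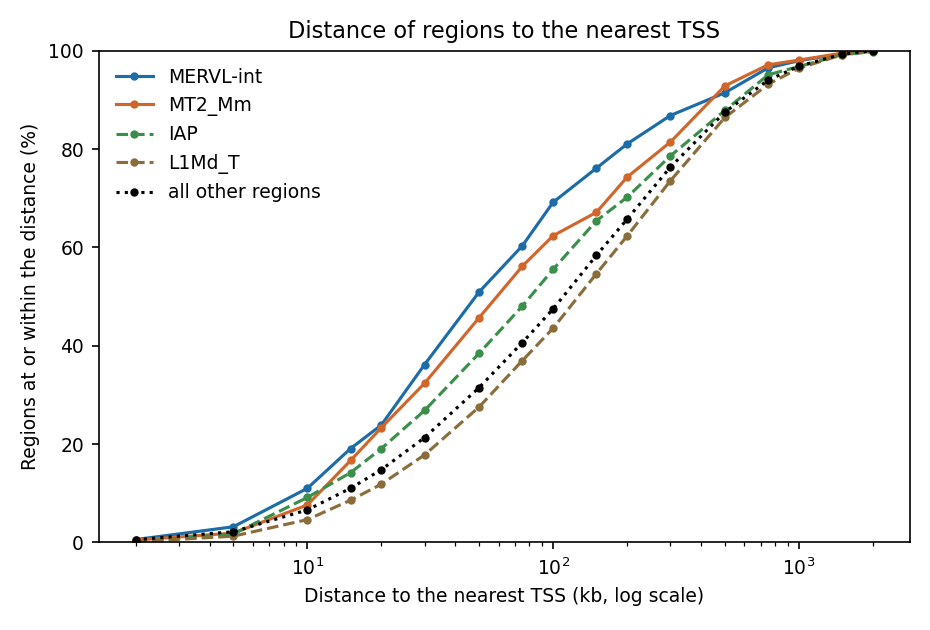
Percent of regions at or within a given distance (kb, log scale) of the nearest TSS for MERVL-int, MT2_Mm, IAP, L1Md_T and all other regions. At 50 kb the MERVL-int curve stood at 50.9%, MT2_Mm at 45.7%, IAP at 38.5%, all other regions at 31.5% and L1Md_T at 27.5%.

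Within 10 kb of a start, more MERVL loci lay upstream than downstream, as was also so for IAP and L1Md_T. Taking the region nearest to a TSS in each locus, 63 loci were within 10 kb, 43 of them upstream (68.3%, 56 to 78.4%). Within 20 kb it was 71 of 133 (53.4%, 44.9 to 61.6%). For IAP the share upstream was 61.2% (52.7 to 69%) at 10 kb and 57.9% at 20 kb, and for L1Md_T 57.9% and 58%. The share upstream among all other regions was 56.7% at 10 kb and 55.7% at 20 kb, so the interval of the MERVL loci at 10 kb holds 56.7%. No test of the difference was made.

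By the gene models of the list, the closest starts were all more than 1.5 kb away. The rule left out any region classed as promoter, for which no repeat is named, so regions closest to a start could not be members. RefSeq has starts inside regions, the Gm52608 start and the internal Tbc1d23 start shown above, 350 and 9 bp from the region's centre. In the list, the nearest region lay 1584 bp upstream of Rbm25, a splicing regulator (chromosome 12, 83630118 to 83631182, MERVL-int, score 34.4), the last of a row of 3 with scores of 24.4, 14.4 and 34.4. Next came an MT2_Mm region 1623 bp upstream of 9130227L01Rik (score 27.6), and MERVL-int regions 1689 bp upstream of a start of Prex2 (11.5) and 1720 bp upstream of Arg2 (15.7). A MERVL-int region 1979 bp from Kifc3 scored 21.4, and MT2_Mm regions 2686 bp from 5730403I07Rik and 2817 bp from Champ1 scored 11.9 and 14.4. Gm13298 had an MT2_Mm region at 2659 bp (17) and a MERVL-int region at 2788 bp (12.7). The last of the 10, at 2834 bp downstream of the start of the pheromone receptor gene Vmn1r57, was a MERVL-int region of 1875 bp with a score of 65.4. At the RefSeq starts of Gm52608 and Gm12790 the list names Sptssb and Gm12789 as the nearest genes.

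No gene gathered many MERVL regions. The 901 regions named 532 nearest genes, of which 515 were nearest to 1 locus and 17 to 2 or 3. Dkk2 and Ercc4, a nuclease gene of DNA repair, were each nearest to 5 regions. The rest of the 10 most frequent had 4 each, namely Arg2, Atxn7l1, Efnb2, Gm12789, Kdm6a, Mdga2, Pfkp and Pla2g4a, where Prcp, Scarna17 and Soga2 tie with them. Of these, Pfkp and Pla2g4a drew on 3 loci each and Ercc4 and Soga2 on 2, and the others owed their count to 1 locus. Families that cluster in the genome were not prominent: Zfp genes were nearest to 12 regions (1.33%, against 0.944% of the others), Vmn genes to 15 (1.66% against 2.02%) and Olfr genes to 7 (0.777% against 1.95%). Predicted genes named Gm were nearest to 6.55%, against 13.3% of the others.

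Within genes, the regions were in introns of many different hosts. The 284 intronic regions formed 161 loci, and 267 of them could be matched to 150 host genes whose RefSeq span holds the region, with a median length of 146.6 kb. Of the hosts, 83 had 2 or more regions, but only 5730522E02Rik and Prkd1, a protein kinase gene, had more than 1 locus. Intron 1 held 21.8% of the intronic regions, against 23.1% of all other intronic regions. Atxn7l1 had 4 MERVL-int regions in intron 3 of 3, with scores between 14.4 and 16.6. Myo5b, a myosin gene, had 3 MERVL-int regions and 1 MT2_Mm region in intron 35 of 38 (20.2 to 37.4). In Rptor, which codes for the RAPTOR subunit of the mTOR complex, 3 MERVL-int regions in intron 3 of 33 scored 23.1 to 32.7. In Ankrd44, Arid4a, Lonp2 and Mrtfa, each with 2 MERVL-int regions and 1 MT2_Mm region, the highest scores were 93.9, 74.8, 61.4 and 56.9.

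Genes of the 2-cell stage were nearest to few MERVL regions, though to a larger share of them than of other regions. Of 49 genes listed for that stage or as MERVL partners, 45 had a symbol known to the reference or the list, and 6 were nearest to a MERVL region, 10 regions in all (1.11% of 901). The same list was nearest to 62 other regions (0.28%). The list includes genes put on it as MERVL partners, so this difference is not independent evidence. Arg2 had 4 of the 10, at 1.72 to 6.93 kb upstream. Cml2 had a MERVL-int and an MT2_Mm region, 4139 and 7808 bp upstream (scores 14.2 and 15.7). Tcstv1, Usp17ld, Tdpoz5 and Obox6 had 1 MERVL-int region each, with scores of 16.6, 18.9, 20.4 and 22.3 at distances from 11.7 to 31.1 kb. The Zscan4 genes, Zfp352 and Sp110 were nearest to none. A second list held 38 genes as regulators of MERVL, among them Trim28, Setdb1, Kdm1a and Chaf1a. Of these, 0 were nearest to a MERVL region and 5 were nearest to 18 other regions (0.0813%). That share is too low for 0 among 901 regions to set MERVL apart by this list. Nelfa, a negative elongation factor subunit of that list, is still host to 3 regions, a MERVL-int (score 32.5) and a pair of MT2_Mm regions (15.9 and 16.4), for which the list names Mir7024 as the nearest gene.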

How the data were processed

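ChIP-seq of PHF13 (SPOC1) and input from mouse testis was used as 1 list of regions. Bowtie2 2.2.2, SAMtools and HOMER 4.6 with build mm10 are named in the submitters' processing notes without roles, and the list was annotated by HOMER against mm10, per the file headers. Peak settings, control and pooling: not given in the sources used here. Scores, as deposited, have no stated unit and were used only within the list, as such or divided by length. Depth is unknown, and the number of regions limits precision. Groups came from the library titles and were not compared. Members were matched on the repeat at the region's centre. Regions with gaps of at most 10 kb were chained into loci. Comparison families were IAP (IAPEz-int, IAPLTR), ETn (ETnERV-int, ETnERV2-int, MMETn-int, RLTRETN) and MMERVK10C (MMERVK10C-int, RLTR10). Densities used the stretch between the outermost genes or regions of a chromosome. Named regions are the 5 highest per kb over 500 bp, the 3 longest and the 3 highest scores of each element, the 10 nearest to a TSS, the 10 most frequent nearest genes, the 5 loci with most regions (8 tie at 4) and the 5 longest, examples of the 83 intron hosts of 2 or more regions, and the 2 gene lists; all other names were chosen after their values were seen. Members and lists were chosen with earlier results of these data known. Alternatives covered score, length, chromosomes, distance and measure. Chaining and the intervals of medians were tested on simulated data, the intervals with independent values only. Software: SciPy 1.17.1 for intervals, pandas 2.3.3 and NumPy 2.4.6 for tables, and matplotlib 3.10.9 for plots, under Python 3.11.15. No mm10 genome was used, so sequences came from the RefSeq start windows that overlap a member; Sp110 and Gm4340 were added after seeing the data.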

Additional observations from a re-analysis of the deposited data

Results flagged for a closer look

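MERVL-int and MT2_Mm were also named at 15 regions outside chromosomes 1 to 19 and X, which no comparison above uses; they are given here because the count is above the 3 that a count of 0 would allow. On Y there were 5 MERVL-int regions (scores 9.98 to 30.6, median 28.2 per kb) and 3 MT2_Mm regions (8.92 to 15.1, median 23.8 per kb). Unplaced or unlocalized contigs held 5 MERVL-int regions (13 to 43.1, median 34.3 per kb) and 2 MT2_Mm regions (7.22 and 8.07). The list has no input or library values for them either.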

How the results depend on the processing

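Of 50 alternatives for 10 results, 24 stayed within the 95% interval of the value reported and 26 did not; the cause was not tested beyond what each setting removes by construction. Comparing with L1Md_T or IAP and using 1 region per locus were added after seeing the data. The upper 50% and the upper 10% of scores were cut over the whole list, Y and contigs included. In the upper 50% of scores the MERVL share of regions was 4.61%, the MERVL-int share 84.3%, the median lengths 796 bp (MERVL-int) and 794 bp (MT2_Mm), the ratio of score per kb to other regions 1.06, the share with a neighbour 55.4% and the share of loci with both elements 12.3%. In the upper 10% the first 2 were 0.825% and 100%. Without regions of exactly 500 bp, the MERVL-int share was 80.7%, the lengths 843 and 760 bp, the ratio to other regions 1.10, the share with a neighbour 50.3% and that of loci with both 11.6%. The MERVL share was 4.3% on autosomes, 2.34% with Y and contigs, 2.76% of covered base pairs and 2.91% of summed score, and the MERVL-int share was 80.9% of covered base pairs. By score in place of score per kb the ratios were 1.31 (MERVL-int over MT2_Mm) and 1.10 (MERVL over others). The latter was 1.13 on autosomes, 1.11 against other LTR elements, 1.10 against L1Md_T and 1 against IAP. Distances of 5 and 20 kb, and centre to centre, moved nothing beyond the interval. No paired analysis was possible because values per library are not part of the list, and replicates could not be left out in turn for the same reason.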

Other observations

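The list also held relatives of MERVL. MERVL_2A-int was named at 8 regions (median 33.1 per kb), the older LTRs MT2B and MT2C_Mm at 5 and 2 (11.9 and 11.2 per kb), and the MaLR elements MTA_Mm-int and MTA_Mm at 34 and 15, both with a median of 26.2 per kb.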
